A study of Mus musculus with 27 samples.

Results

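Interferon-stimulated genes are the genes that cells switch on after sensing an interferon. In the deposited expression table, 31 of 34 listed interferon-stimulated genes were found by gene symbol, among 16024 rows in all; Ifit3, Mx2 and Gbp2 were not analysed here. The members were listed by name, with earlier results of these data known. All 31 were detected, since no member was at 0 in any of the 27 libraries, and each is described in 10 groups of mouse lung cells.

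Type I interferons bind the IFNAR1 and IFNAR2 receptor chains, and the kinases JAK1 and TYK2 then phosphorylate transcription factors, STAT2 among them. STAT2 and IRF9 are parts of the factor ISGF3, which binds interferon-stimulated response elements (ISRE) near the start of its target genes. The products sense viral RNA and DNA, block viral translation and replication, modify proteins with ISG15, or damp the signal. In the lung these genes are known chiefly from the response to respiratory viruses.

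HKP1 cells, a lung cancer line, were injected into the tail vein of C57BL/6 mice, and lungs with tumours were taken on day 20 to 25. WT lungs of the same strain served for comparison, and lungs were perfused and dissociated before sorting. For each kind of lung, 5 preparations were sequenced: macrophages, monocytes, neutrophils, epithelial cells and unsorted total lung cells. The groups were tumour macrophages (CD11c+CD11b+, 3 libraries) and WT macrophages (CD11c+CD11b-, 2 libraries), tumour and WT monocytes (CD11b+Ly6C+, 2 libraries each), tumour and WT neutrophils (CD11b+Ly6G+, 3 each), tumour and WT epithelial cells (Epcam+CD11b-CD11c-, 3 each), and tumour and WT total lung (3 each). The macrophage gates of the tumour and WT lungs differ in CD11b, so the tumour and the gate cannot be told apart in that comparison, and the Epcam+ gate does not by itself separate injected tumour cells from host epithelium. Whether the libraries of a group stem from different mice is not labelled. The p-values therefore describe spread among libraries, and that spread may be technical. Libraries are named below by the number in their titles.

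The unit is FPKM, fragments scaled by transcript length and by the number of mapped fragments, so levels of different genes compare per length. Between 8560 and 11420 rows reached 1 FPKM in a library. For pairs of libraries within a group, log2(FPKM + 1) was correlated across genes. Pearson r ran from 0.964 (lowest pair, in tumour epithelial cells) to 0.996 (highest pair, in tumour neutrophils). Fragment counts are not given, so counting error cannot be stated. For the labelled neutrophils, the summed FPKM of 8 neutrophil genes was 24892 to 30544 in tumour neutrophils and 28247 to 30602 in WT neutrophils. The 10 epithelial genes summed to 5763 to 12222 in tumour epithelial cells and 8079 to 16447 in WT epithelial cells. In tumour monocytes the monocyte-derived macrophage genes (9) summed to 2896 to 4874, beside 2398 to 2672 for the monocyte genes (7). In WT macrophages the epithelial genes summed to 1181 to 1291, beside 1264 to 1374 for the alveolar macrophage genes (6). Some abundant genes were listed at 0 in whole groups, among them S100a9 in WT neutrophils, Apoe in tumour macrophages, and Sftpc and Sftpb in both epithelial groups. In a bulk library, fewer cells of a type and less RNA per cell cannot be told apart.

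Promoter sequence was not used to choose the members, and is shown first because the ISRE is the site through which ISGF3 acts. RefSeq promoter entries (GRCm38.p6, 250 bases before to 50 bases after the gene start) were found for 24 of the 31 members. An ISRE was searched as GAAA, any 2 bases and GAAA, and a gamma-activated site (GAS) as TTCNNNGAA, on both strands. An ISRE match stood in 9 of 24 members (37.5%), against 3.99% of 27025 genes with an entry and 3.55% of the 11960 genes that also have a row in the expression table. A GAS match stood in 6 members (25.0%), against 9.55% of all genes. Both motifs are short and partly degenerate, and a match is not a measured binding site.

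The sequences printed here are the promoters of the 4 members with the largest rise in tumour macrophages among those with an entry, and of Irf7 and Dtx3l as members without an ISRE match in the window. Capitals mark ISRE matches, which read TTTC, any 2 bases and TTTC where they lie on the opposite strand. Positions count from the gene start, with the base before it as -1. Rsad2 (chr12:26456403-26456702, minus strand) has 1 match, GAAAATGAAA, at -120. Ifit1 (chr19:34640639-34640938, plus strand) has GAAAGTGAAA at -104 and GAAACTGAAA at -85. Isg15 (chr4:156200769-156201068, minus strand) has 3 overlapping matches in a single run, GAAAAGGAAA at -78, GAAACCGAAA at -72 and GAAACAGAAA at -66. Ifit2 (first of its entries, chr19:34550444-34550743, plus strand), Irf7 (chr7:141266375-141266674, minus strand) and Dtx3l (chr16:35938978-35939277, minus strand) have none in these letters.
Rsad2: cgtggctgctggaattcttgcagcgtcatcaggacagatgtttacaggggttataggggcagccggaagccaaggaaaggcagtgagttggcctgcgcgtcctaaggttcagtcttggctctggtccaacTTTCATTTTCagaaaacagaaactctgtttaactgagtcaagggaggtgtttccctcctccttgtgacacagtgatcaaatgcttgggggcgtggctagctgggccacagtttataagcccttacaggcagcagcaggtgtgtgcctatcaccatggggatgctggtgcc
Ifit1: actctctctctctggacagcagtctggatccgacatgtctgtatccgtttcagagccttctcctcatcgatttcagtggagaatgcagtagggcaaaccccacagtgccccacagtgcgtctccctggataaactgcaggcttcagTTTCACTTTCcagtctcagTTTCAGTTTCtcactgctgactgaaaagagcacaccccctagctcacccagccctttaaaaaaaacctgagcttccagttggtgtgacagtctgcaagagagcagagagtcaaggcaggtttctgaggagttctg
Isg15: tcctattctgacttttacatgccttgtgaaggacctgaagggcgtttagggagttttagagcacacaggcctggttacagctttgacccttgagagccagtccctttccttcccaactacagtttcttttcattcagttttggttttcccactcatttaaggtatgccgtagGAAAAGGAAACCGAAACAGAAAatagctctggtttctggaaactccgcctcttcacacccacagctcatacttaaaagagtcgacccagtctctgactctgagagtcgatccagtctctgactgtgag
Ifit2: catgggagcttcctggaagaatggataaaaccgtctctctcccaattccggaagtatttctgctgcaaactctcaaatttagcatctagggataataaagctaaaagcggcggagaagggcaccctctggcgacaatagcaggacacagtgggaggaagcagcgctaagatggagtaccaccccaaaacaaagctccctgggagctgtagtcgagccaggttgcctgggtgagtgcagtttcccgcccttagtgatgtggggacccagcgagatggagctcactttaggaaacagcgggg
Irf7: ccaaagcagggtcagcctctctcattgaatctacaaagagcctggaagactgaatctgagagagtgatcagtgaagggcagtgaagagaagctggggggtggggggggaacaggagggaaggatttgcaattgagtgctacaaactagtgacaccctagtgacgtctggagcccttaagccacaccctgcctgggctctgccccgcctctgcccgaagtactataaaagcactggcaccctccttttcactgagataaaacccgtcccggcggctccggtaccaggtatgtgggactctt
Dtx3l: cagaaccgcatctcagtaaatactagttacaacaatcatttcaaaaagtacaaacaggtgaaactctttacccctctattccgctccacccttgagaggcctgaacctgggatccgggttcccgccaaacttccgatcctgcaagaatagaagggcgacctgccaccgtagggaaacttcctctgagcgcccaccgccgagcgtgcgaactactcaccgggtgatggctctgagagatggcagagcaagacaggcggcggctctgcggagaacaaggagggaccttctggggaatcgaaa

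**Figure D1:**
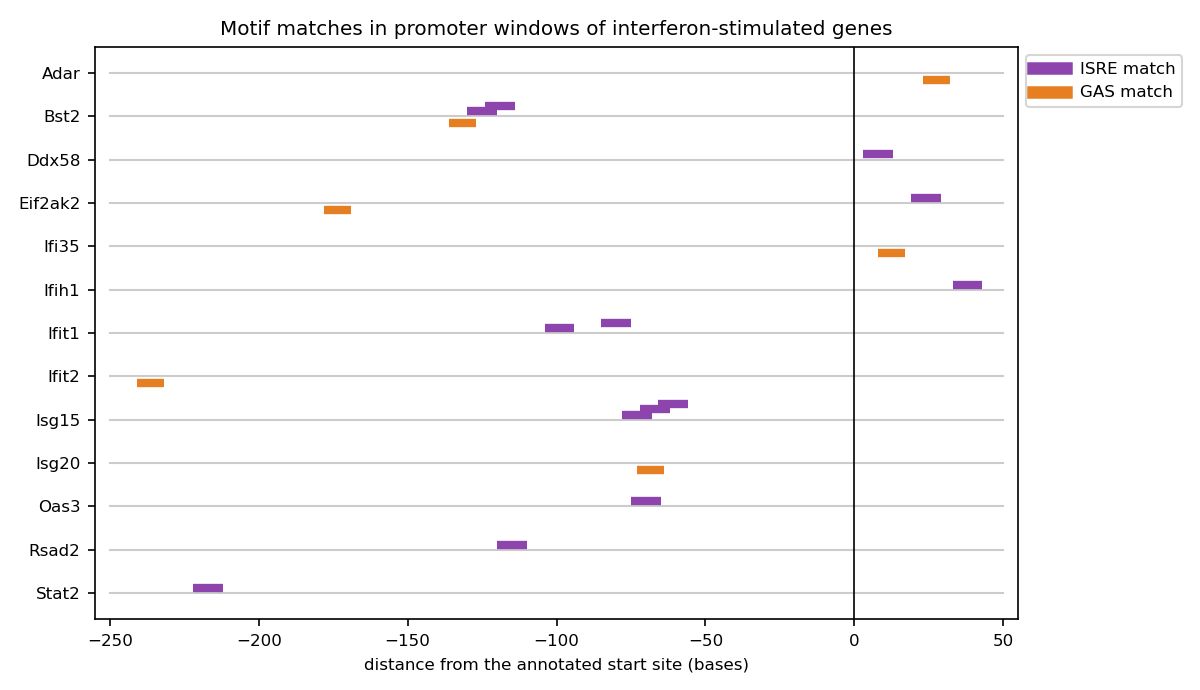
Positions of ISRE matches and GAS matches in the 300-base promoter windows of the members that hold a match, in rows by gene, with the distance from the gene start in bases on the horizontal axis. Bars mark matches on either strand, at different heights where a promoter has several: the 3 Isg15 matches form a single run, and the ISRE matches of Ddx58, Eif2ak2 and Ifih1 lie after the gene start.

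Across the 8 sorted groups, monocytes carried the highest mean level of 21 of the 31 members: WT monocytes for 18 and tumour monocytes for 3. WT neutrophils were highest for 6 (Oas3, Isg15, Rsad2, Isg20, Samd9l and Rtp4) and tumour macrophages for 4 (Ifih1, Ifit1, Ifit2 and Oasl1). WT macrophages were lowest for 11 members, WT epithelial cells for 9 and tumour neutrophils for 6. The shares of all genes highest or lowest in each group were not computed. The median member level in a library, on the log2(FPKM + 1) scale, was 3.77 to 3.99 in tumour macrophages against 2.79 to 2.90 in WT macrophages. In tumour monocytes it was 4.40 to 4.68, against 4.43 to 4.83 in WT monocytes. Neutrophil libraries spanned 2.87 to 3.80 in tumour lungs and 3.496 to 3.95 in WT lungs, and these ranges overlapped. The median over all rows also differed between cell types. It was 2.11 to 2.17 in tumour macrophages and 2.13 to 2.15 in WT macrophages. In tumour monocytes it was 2.24 to 2.31 and in WT monocytes 2.31 to 2.33. In tumour neutrophils it was 1.27 to 1.33 and in WT neutrophils 1.24 to 1.35. Across sorted groups, the ratio of the highest to the lowest group mean FPKM was widest for Rsad2, at 453, and Ifit1, at 227, and narrowest for Ddx58, at 2.47. The lowest means of Rsad2 and Ifit1 were those of WT macrophages, at 0.219 and 0.305 FPKM. At such low levels the precision of these ratios is not known. Rsad2 encodes viperin, which makes a chain-terminating nucleotide, and Ddx58 encodes the RNA sensor RIG-I.

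**Figure D2:**
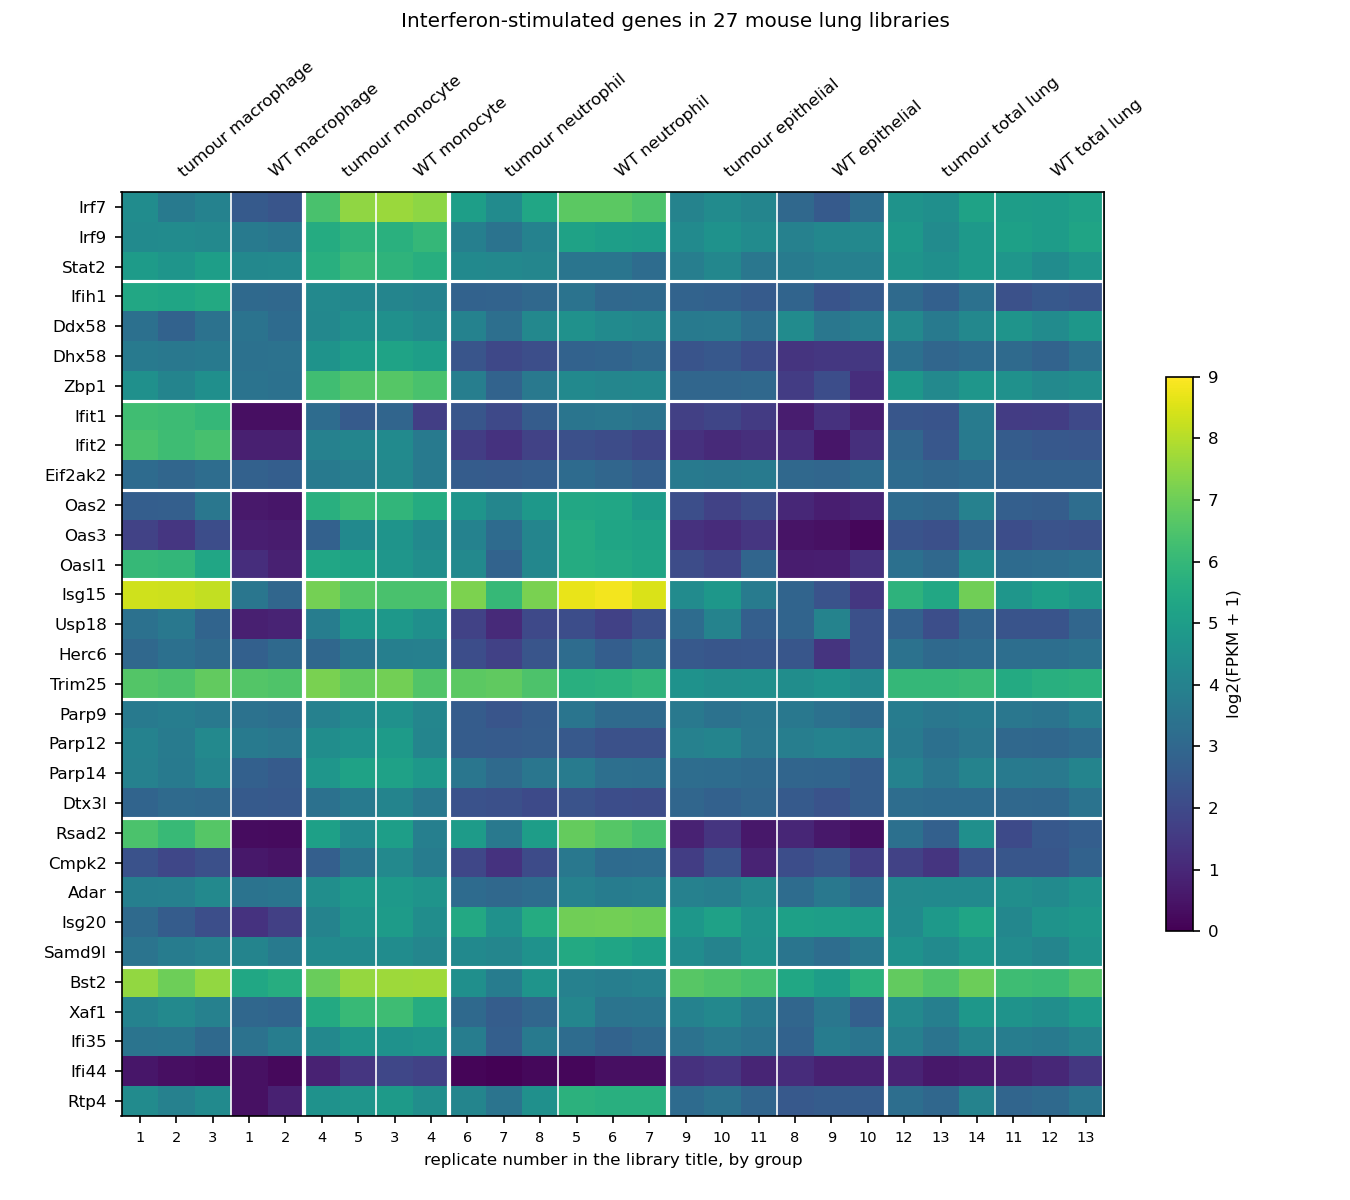
Level of each of the 31 members in each of the 27 libraries, as log2(FPKM + 1), with members grouped by role and libraries grouped by preparation. Ifit1, Ifit2, Rsad2 and Isg15 are dark in the WT macrophage columns and bright in the tumour macrophage columns. In the neutrophil columns Isg15 and Rsad2 are less bright in tumour than in WT lungs, without being dark.

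Tumour macrophages carried more of most members than WT macrophages, by amounts that differed widely. Of 30 members tested, 22 rose, none fell and 8 did not pass the test (limma on log2(FPKM + 1), Benjamini-Hochberg adjusted p under 0.05 over all 10119 genes tested). The background was 37.9% of all genes called, 20.3% higher and 17.7% lower in tumour macrophages. The median log2 change was 1.09 over the members and 0.00 over all genes tested. For 8 members (Cmpk2, Ifit1, Ifit2, Oas2, Oas3, Rsad2, Rtp4 and Usp18) no WT macrophage library reached 1 FPKM. These passed the filter on low values through the tumour group alone and had to differ, so their p-values below are not separate support. All 8 were among the 22, and without them 14 of 22 rose, a count made after the data were seen. Ifi44 stayed under the level needed for the test.

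Of the 3 RNA-binding proteins that block translation, 2 rose. Ifit1, whose product binds viral RNA lacking 2'-O methylation, had 74.6, 70.9 and 62.1 FPKM in tumour macrophages against 0.307 and 0.303 FPKM in WT macrophages. Ifit2 had 84.5, 73.1 and 82.00 FPKM in tumour macrophages and 0.7502 and 0.741 FPKM in WT macrophages. Neither gene's groups overlapped, but both are among the low members that had to differ. The log2 changes were 5.75 (SE 0.12, adjusted p = 1.14e-06) for Ifit1 and 5.53 (SE 0.11, adjusted p = 1.14e-06) for Ifit2. Eif2ak2, the kinase PKR that phosphorylates eIF2α, had 7.89, 6.93 and 8.23 FPKM in tumour macrophages and 5.91 and 5.404 FPKM in WT macrophages, and its change of 0.38 missed the threshold (adjusted p = 0.0546).

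All 3 oligoadenylate synthetase family members rose. Oasl1, which in mice represses translation of Irf7 mRNA, had 63.6, 61.6 and 38.9 FPKM in tumour macrophages against 1.25 and 0.7803 FPKM in WT macrophages, a log2 change of 4.77 (SE 0.23, adjusted p = 2.26e-05). Oas2, which makes the oligoadenylates that activate RNase L, had 5.52, 5.56 and 10.97 FPKM in tumour macrophages and 0.542 and 0.443 FPKM in WT macrophages, a change of 2.42 (adjusted p = 0.000895). Oas3 changed by 1.07 (adjusted p = 0.0109), a call lost when either WT macrophage library was left out.

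In the ISG15 system, 2 of 4 members rose. Isg15, a ubiquitin-like protein that is joined to other proteins, had 327, 314 and 291 FPKM in tumour macrophages against 10.7 and 6.85 FPKM in WT macrophages, a log2 change of 5.02 (SE 0.17, adjusted p = 7.57e-06). Usp18, which removes ISG15 and restrains signalling at IFNAR2, had 9.32, 11.1 and 6.43 FPKM in tumour macrophages and 0.7402 and 0.878 FPKM in WT macrophages, a change of 2.43 (adjusted p = 0.000291). The ligase genes behaved differently from these: Herc6, the main ISG15 ligase of mice, changed by 0.24 and Trim25, a RING ligase, by 0.09, and neither passed the test.

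Among enzymes that act on nucleotides and RNA, 4 of 5 rose. Rsad2 had 87.1, 66.6 and 97.1 FPKM in tumour macrophages against 0.239 and 0.199 FPKM in WT macrophages, a log2 change of 6.10 (SE 0.17, adjusted p = 4.17e-06), the largest of any member in any preparation. Cmpk2, a mitochondrial nucleotide kinase whose gene lies head to head with Rsad2 on chromosome 12 with 12751 bases between them, had 3.83, 2.77 and 3.64 FPKM in tumour macrophages and 0.501 and 0.378 FPKM in WT macrophages, a change of 1.61 (adjusted p = 0.000595). These neighbours moved in the same direction, at levels per length that differed widely. The RNA editing enzyme Adar (0.54) and the exonuclease Isg20 (1.11) also passed, but each lost the call when either WT macrophage library was left out. Adar shares 1365 exonic bases (16.8% of its exons) with Chrnb2 on the other strand, and the library kit does not mark strand.

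All 3 transcription factors rose. Irf7, which drives the later wave of interferon genes, had 19.6, 11.8 and 14.9 FPKM in tumour macrophages against 4.82 and 4.16 FPKM in WT macrophages, a log2 change of 1.56 (SE 0.21, adjusted p = 0.00151). Irf9 changed by 0.70 (adjusted p = 0.00267), with 18.7, 19.4 and 17.97 FPKM in tumour macrophages and 11.7 and 10.5 FPKM in WT macrophages. Stat2 had 29.7, 24.8 and 32.3 FPKM in tumour macrophages and 17.6 and 18.1 FPKM in WT macrophages, a change of 0.66 (adjusted p = 0.00813). The groups did not overlap for any of these factors, but Stat2 lost its call when either WT macrophage library was left out.

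The sensors split. Ifih1, the long double-stranded RNA sensor MDA5, had 41.4, 38.6 and 42.9 FPKM in tumour macrophages against 7.39 and 7.27 FPKM in WT macrophages, a log2 change of 2.33 (SE 0.10, adjusted p = 1.51e-05). Zbp1, a sensor of Z-form nucleic acid, had 22.1, 15.9 and 21.6 FPKM in tumour macrophages and 9.63 and 9.33 FPKM in WT macrophages, a change of 0.98 (adjusted p = 0.00375). By contrast Ddx58 changed by -0.11 and Dhx58, the sensor LGP2, by 0.28, and neither passed the test.

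Of the PARP and DTX3L group, 3 of 4 rose. Parp14, a mono-ADP-ribosyltransferase, had 14.6, 12.2 and 15.95 FPKM in tumour macrophages and 5.84 and 5.06 FPKM in WT macrophages, a log2 change of 1.24 (adjusted p = 0.000916). Dtx3l, a ubiquitin ligase that pairs with PARP9, had 6.46, 7.57 and 7.17 FPKM in tumour macrophages and 4.91 and 4.64 FPKM in WT macrophages, a change of 0.48 (adjusted p = 0.0236). Parp9 changed by 0.37 (adjusted p = 0.0426) and lost the call in 8 of 12 alternative settings. It was lost with no filter on low values, upper-quartile scaling, quantile normalization and the fit of all 10 groups. It was also lost without tumour library 1 or 2, or WT library 1 or 2. Dtx3l lost its call in 3 of 12 settings, each time when a library was left out. Dtx3l and Parp9 overlap on opposite strands over 458 exonic bases (8.0% of Dtx3l exons and 9.4% of Parp9 exons), so their reads cannot be fully told apart.

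Among the remaining effectors, Rtp4, a chaperone of G protein-coupled receptors, had 19.3, 14.6 and 18.8 FPKM in tumour macrophages against 0.339 and 0.753 FPKM in WT macrophages, a log2 change of 3.59 (SE 0.18, adjusted p = 2.56e-05). Bst2, or tetherin, which holds budding virions at the cell surface, had 185, 129 and 184 FPKM in tumour macrophages and 39.95 and 47.3 FPKM in WT macrophages, a change of 1.89 (adjusted p = 0.000385). Xaf1, a pro-apoptotic zinc finger protein, changed by 1.11 (adjusted p = 0.000758), and Ifi35 by -0.26, which did not pass. An ISRE match stood in the promoters of 7 of the 16 members with an entry that rose in tumour macrophages (43.8%), and in 2 of the 7 members that were not called (28.6%).

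Leaving out either WT macrophage library reduced the count of members that rose to 16, and the lone WT library left is then assumed to vary like the others. The share of all genes called was not computed without these libraries. Marker genes moved with this comparison. The summed FPKM of 9 monocyte-derived macrophage genes was 4396 to 6276 in tumour macrophages against 206 to 236 in WT macrophages, although Apoe was listed at 0 in tumour macrophages. The sum of the 6 alveolar macrophage genes in the table was 704 to 909.6 in tumour macrophages and 1264 to 1374 in WT macrophages. Sums for 8 neutrophil genes were 181 to 546 in tumour macrophages and 42.8 to 67.95 in WT macrophages, small beside those of the neutrophil libraries. The epithelial genes summed to 117 to 751 in tumour macrophages and 1181 to 1291 in WT macrophages, the 8 endothelial genes to 6.05 to 10.9 in tumour macrophages and 56.6 to 60.9 in WT macrophages, and the 6 T cell genes to 36.3 to 53.9 in tumour macrophages and 12.1 to 13.4 in WT macrophages. The part of these differences in the member changes was not tested.

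**Figure D3:**
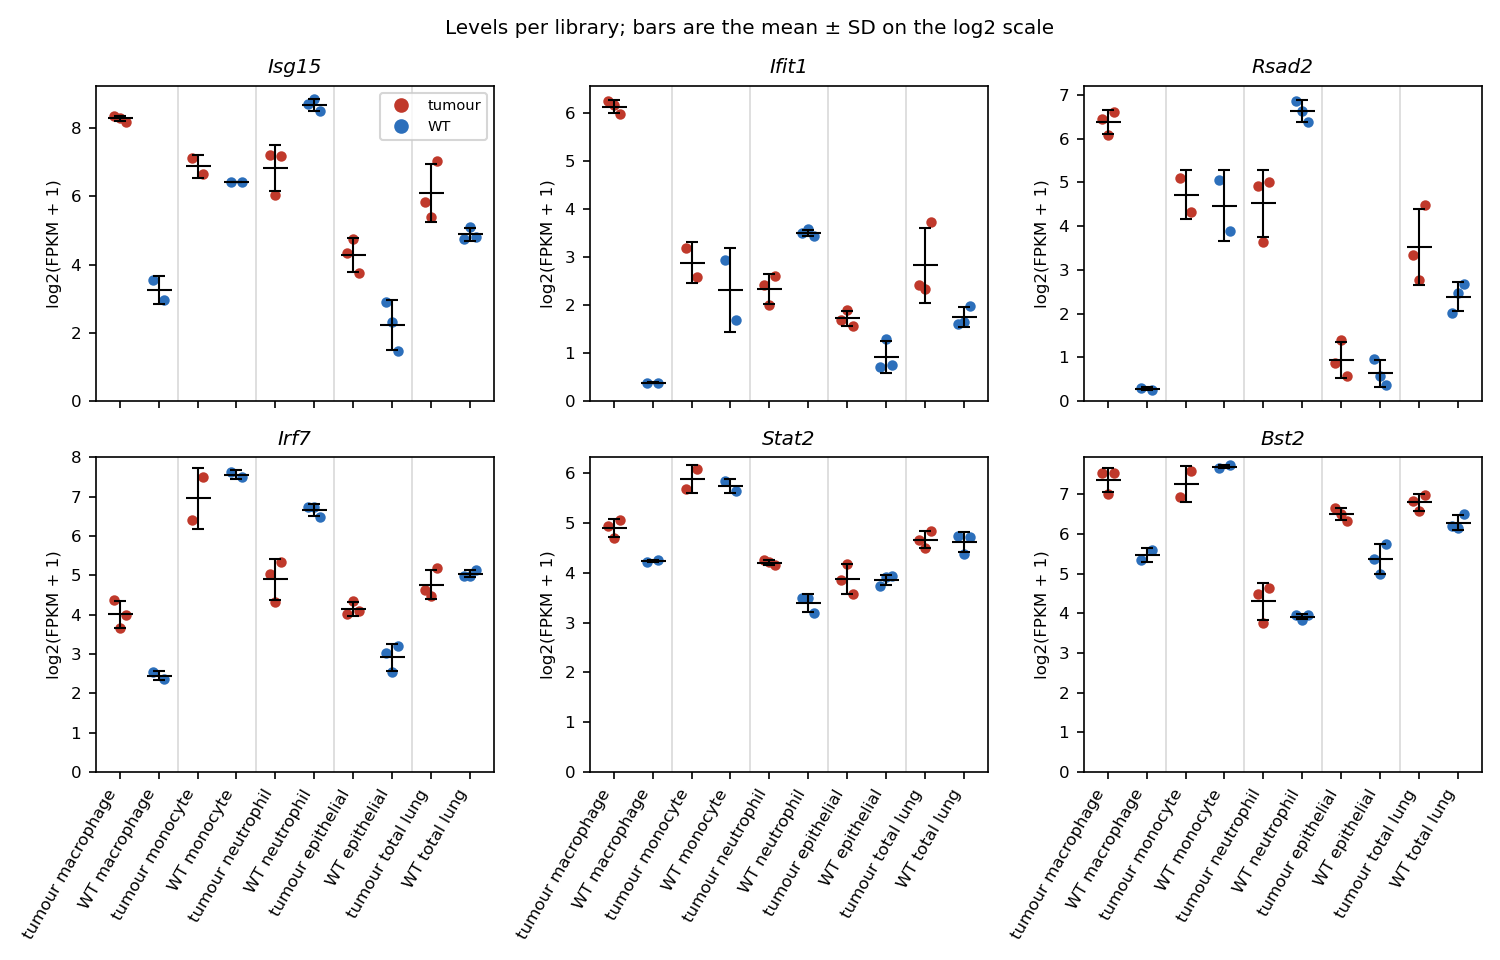
Level of Isg15, Ifit1, Rsad2, Irf7, Stat2 and Bst2 as log2(FPKM + 1), with a point for each library, bars at the group mean ± SD on that scale, and tumour (red) left of WT (blue) within each preparation. The Rsad2 points correspond to 66.6 to 97.1 FPKM in tumour macrophages and under 1 FPKM in WT macrophages, and to 11.4 to 31.1 FPKM in tumour neutrophils and 82.7 to 116 FPKM in WT neutrophils.

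Neutrophils showed the opposite pattern. Of 30 members tested, 19 fell in tumour neutrophils, 2 rose and 9 did not pass the test, against a background of 59.1% of all genes called, 25.8% lower and 33.3% higher (limma, Benjamini-Hochberg adjusted p over 9349 genes). The median log2 change was -0.74 over the members and 0.11 over all genes tested.

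All 5 nucleotide and RNA enzymes fell. Rsad2 had 29.3, 11.4 and 31.1 FPKM in tumour neutrophils against 116, 98.7 and 82.7 FPKM in WT neutrophils, a log2 change of -2.11 (SE 0.33, adjusted p = 0.000744). Isg20 had 42.2, 22.6 and 45.9 FPKM in tumour neutrophils and 131, 134 and 129 FPKM in WT neutrophils, a change of -1.87 (SE 0.23, adjusted p = 0.00024). The groups were well apart for both genes, with the second tumour library, number 7, the lowest each time. Cmpk2 changed by -1.54, Samd9l, a translation inhibitor of the SAMD9 family, by -0.95 and Adar by -0.74, each with an adjusted p of 0.000753 or less.

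Isg15 had 148, 64.7 and 145 FPKM in tumour neutrophils against 413, 461 and 358 FPKM in WT neutrophils, a log2 change of -1.86 (SE 0.29, adjusted p = 0.000755). Herc6 had 3.32, 2.33 and 4.23 FPKM in tumour neutrophils and 8.13, 5.504 and 7.54 FPKM in WT neutrophils, a change of -0.92 (adjusted p = 0.0035). Within the same system Trim25 went the other way, with 106, 109.5 and 88.7 FPKM in tumour neutrophils and 50.3, 52.3 and 60.1 FPKM in WT neutrophils, a change of 0.89 (adjusted p = 0.000459). Usp18 changed by -0.41, which did not pass.

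The transcription factors also parted. Irf7 had 31.7, 19.1 and 39.3 FPKM in tumour neutrophils against 106, 106 and 88.5 FPKM in WT neutrophils, a log2 change of -1.76 (SE 0.23, adjusted p = 0.000312). Irf9 had 13.8, 9.83 and 15.1 FPKM in tumour neutrophils and 35.4, 31.8 and 30.7 FPKM in WT neutrophils, a change of -1.29 (SE 0.16, adjusted p = 0.000219). Stat2, the partner of IRF9 in ISGF3, rose: it had 18.2, 17.4 and 16.7 FPKM in tumour neutrophils and 10.3, 10.3 and 8.12 FPKM in WT neutrophils, a change of 0.81 (SE 0.12, adjusted p = 0.000664). Stat2 was the only member called higher in both tumour macrophages and tumour neutrophils, and the difference between its changes was -0.15 (adjusted p = 0.515).

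All 3 oligoadenylate synthetase family members fell. Oasl1 had 17.7, 6.29 and 16.8 FPKM in tumour neutrophils against 45.1, 42.6 and 37.1 FPKM in WT neutrophils, a log2 change of -1.66 (adjusted p = 0.00215). Oas3, whose product activates RNase L, had 15.03, 7.92 and 16.3 FPKM in tumour neutrophils and 45.3, 37.8 and 35.7 FPKM in WT neutrophils, a change of -1.58 (adjusted p = 0.000609). Oas2, its neighbour 3244 bases away on chromosome 5, changed by -0.70 (adjusted p = 0.0131).

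Ifit1 had 4.304, 2.99 and 5.09 FPKM in tumour neutrophils against 10.2, 10.9 and 9.83 FPKM in WT neutrophils, a log2 change of -1.16 (adjusted p = 0.000426). Ifit2 changed by -0.49 (adjusted p = 0.0265), with 2.09, 1.48 and 2.43 FPKM in tumour neutrophils and 3.62, 3.26 and 2.68 FPKM in WT neutrophils, and lost the call in 7 of 12 alternative settings, 4 of which left out a library (tumour 6, tumour 7, WT 5 or WT 6). Both are members of the IFIT family, and only Ifit1 kept its call in every setting tried. Of the sensors, Dhx58 had 4.15, 2.91 and 3.44 FPKM in tumour neutrophils and 6.18, 6.52 and 7.51 FPKM in WT neutrophils, a change of -0.79 (adjusted p = 0.00149). Zbp1 changed by -0.73 (adjusted p = 0.0199), with 13.4, 6.31 and 11.4 FPKM in tumour neutrophils and 18.1, 16.6 and 16.9 FPKM in WT neutrophils, a call lost without WT library 5 and with no filter on low values. Ifih1 (-0.28) and Ddx58 (-0.51) did not pass.

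Among the other effectors, Rtp4 had 15.95, 10.1 and 21.7 FPKM in tumour neutrophils against 53.6, 50.1 and 50.02 FPKM in WT neutrophils, a log2 change of -1.68 (SE 0.22, adjusted p = 0.000338). Xaf1 had 7.43, 5.23 and 6.79 FPKM in tumour neutrophils and 16.6, 10.1 and 10.3 FPKM in WT neutrophils, a change of -0.81 (adjusted p = 0.00749). Parp9 was the only member of the PARP and DTX3L group to fall, by 0.71 on the log2 scale (adjusted p = 0.00314), with 5.08, 4.17 and 5.12 FPKM in tumour neutrophils and 10.3, 7.69 and 7.54 FPKM in WT neutrophils. Its overlapping neighbour Dtx3l changed by -0.01. Bst2, at 21.4, 12.6 and 24.1 FPKM in tumour neutrophils and 14.5, 13.3 and 14.4 FPKM in WT neutrophils, changed by 0.39 and did not pass. Of the 14 members with a promoter entry that fell in tumour neutrophils, 4 held an ISRE match (28.6%), as did 4 of the 7 that were not called (57.1%).

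Tumour neutrophil library 7 was the lowest of its group for 27 of the 31 members, where 41.5% of all genes were lowest in it. Without it, 18 members fell and 4 rose. Other markers moved here too: the summed FPKM of 10 epithelial genes was 51.2 to 101 in tumour neutrophils against 699 to 3243 in WT neutrophils, and that of 5 B cell genes was 7.899 to 57.6 in tumour neutrophils against 168 to 244 in WT neutrophils. The sum of the 7 monocyte genes in the table was 1579.5 to 2188 in tumour neutrophils and 1026 to 1119 in WT neutrophils. The part of these differences was not tested.

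The change from WT to tumour differed between macrophages and neutrophils for most members. A test of the difference between the changes was past the threshold for 26 of 30 members, 25 with the higher value in macrophages, against a background of 52.7% of all genes called, 23.9% higher in macrophages and 28.8% lower (limma, Benjamini-Hochberg adjusted p over 10669 genes). Without the 8 members that no WT macrophage library held at 1 FPKM, the test was past the threshold for 18 of 22, 17 of them with the higher value in macrophages. The exception in sign was Trim25, at -0.80 (adjusted p = 0.00328). Between the preparations, 16 members rose in tumour macrophages and fell in tumour neutrophils. They are 72.7% of the 22 that rose and 84.2% of the 19 that fell. Over all genes, 20.3% were higher in tumour macrophages and 25.8% lower in tumour neutrophils. The share of all genes with both calls was not computed. Ifit1, Ifit2, Oas2, Oas3, Rsad2, Cmpk2 and Rtp4 of the 16 are among those 8 low members. All 16 were past the threshold in the test of the difference, which draws on the same libraries and is not separate support. Rsad2 showed the widest gap, 8.21 (SE 0.45, adjusted p = 1.24e-07), followed by Ifit1 at 6.91 and Isg15 at 6.88. For each of these genes, every tumour macrophage library was above every WT macrophage library, and every tumour neutrophil library was below every WT neutrophil library.

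**Figure D4:**
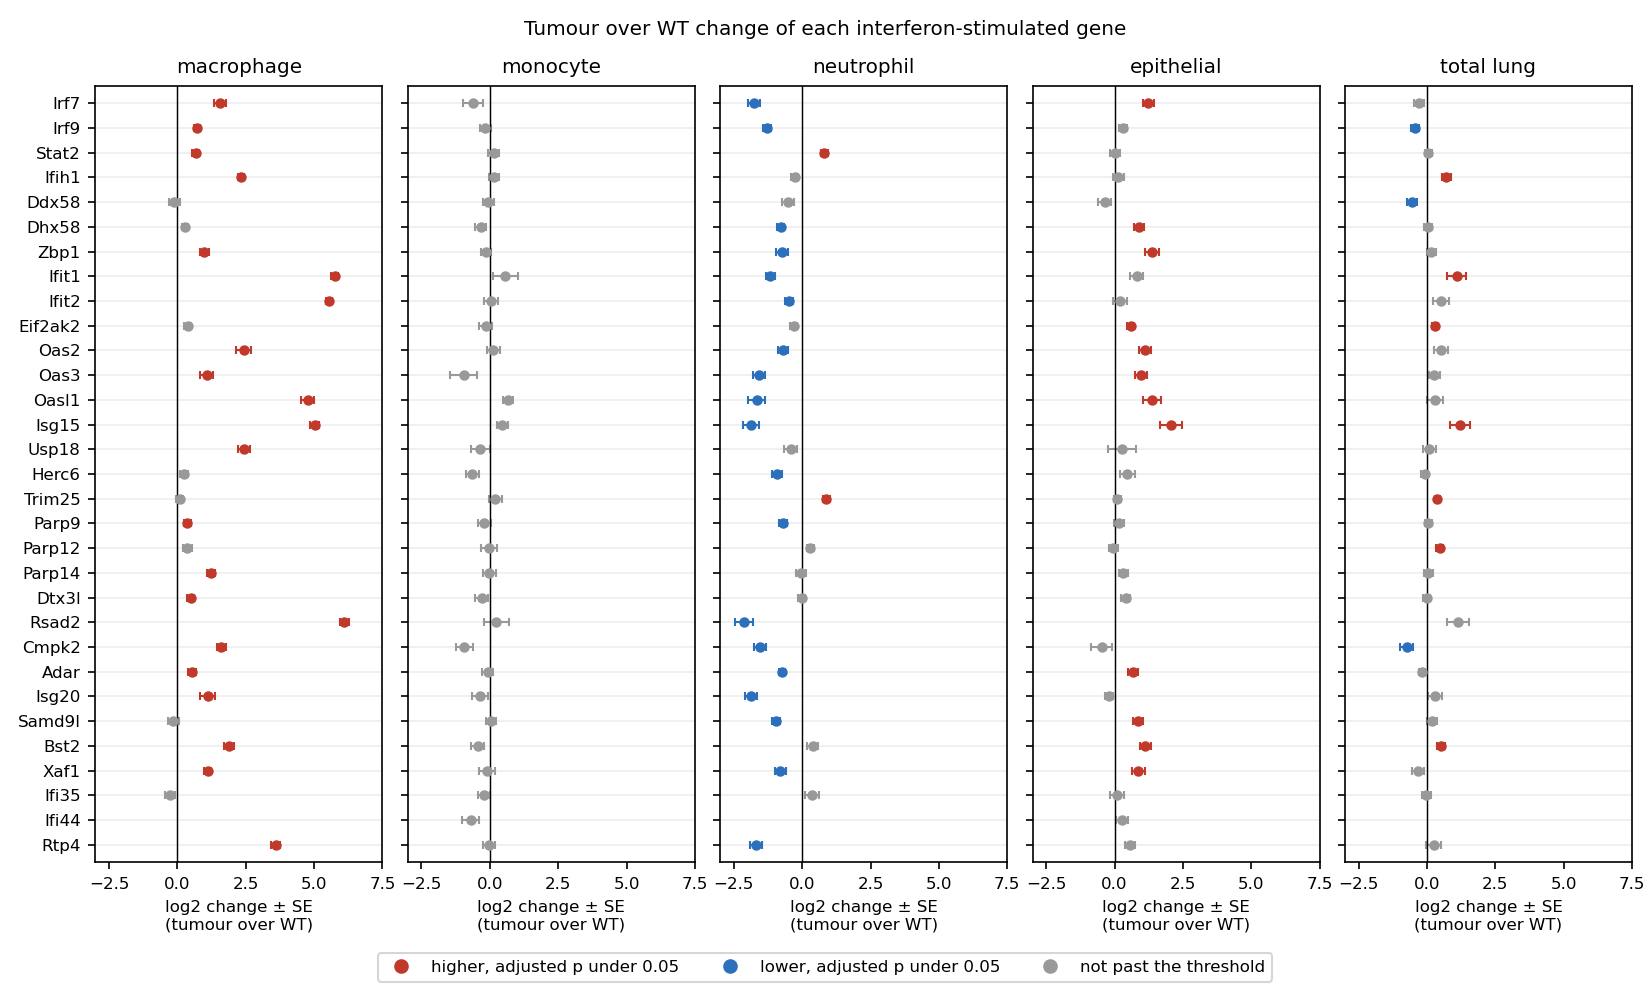
Log2 change of each member, tumour over WT, in the 5 preparations, on the log2(FPKM + 1) scale, with bars for the standard error; red points are higher and blue points lower in tumour lungs at an adjusted p under 0.05, and grey points did not pass. In macrophages points run up to 6.10 (Rsad2), and in neutrophils the same gene lies at -2.11.

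The order of neutrophils and macrophages also turned round between the lungs for several members. In tumour lungs, Isg15 was higher in macrophages than in neutrophils, with a log2 difference of 1.47 (SE 0.27, adjusted p = 0.000332), Rsad2 by 1.87 and Ifit1 by 3.79. In WT lungs neutrophils carried more than macrophages of each, by 5.42 for Isg15 (SE 0.30, adjusted p = 1.15e-08), 6.35 for Rsad2 and 3.12 for Ifit1. Irf7, Ddx58, Oas2, Oas3, Isg20 and Samd9l kept the same order, with neutrophils called higher in both lungs. Stat2, Dhx58, Parp12, Dtx3l and Bst2 kept the other order, with macrophages called higher in both lungs. Of these, only Parp12 and Bst2 held both calls in every alternative setting. Irf7 was lower in tumour macrophages than in tumour neutrophils, at -0.89, and higher in WT neutrophils than in WT macrophages, at 4.20; Isg20 likewise gave -2.55 and 5.52. In total 20 of 30 members were higher and 6 lower in tumour macrophages than in tumour neutrophils, beside 78.8% of all genes called (61.2% higher and 17.6% lower), so the member counts lay near the background. In WT neutrophils 19 were higher and 6 lower than in WT macrophages, beside 82.2% of all genes called (22.3% higher and 60% lower). All 8 members with no WT macrophage library at 1 FPKM were among those 19, and without them 11 of 22 were higher and 6 lower. The median of all genes was itself 0.61 in the tumour comparison and -0.75 in the WT comparison, and with upper-quartile scaling the members split 13 higher and 8 lower in tumour lungs, and 23 higher and 2 lower in WT lungs.

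Monocytes had high levels of the members in both lungs, and no member passed the test (limma, 31 tested). Nor did any of the 10366 genes tested, 0% in either direction, with a lowest adjusted p of 0.0911. At an unadjusted p under 0.05 there were 3 members, 1 higher and 2 lower in tumour monocytes, or 9.68% of members against 15% of all genes. The median log2 change was -0.11 over the members and -0.00 over all genes. Isg15 had 138 and 98.7 FPKM in tumour monocytes and 84.2 and 84.2 FPKM in WT monocytes. Irf7 had 83.8 and 181 FPKM in tumour monocytes and 198 and 178 FPKM in WT monocytes. Both tumour libraries were above both WT libraries for Isg15, whose change of 0.46 did not pass (adjusted p = 0.386), and the groups overlapped for Irf7.

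Rsad2 had 33.6 and 18.9 FPKM in tumour monocytes and 32.2 and 13.9 FPKM in WT monocytes. Ifit1 had 8.07 and 4.98 FPKM in tumour monocytes and 6.62 and 2.22 FPKM in WT monocytes. Stat2 had 50.4 and 66.9 FPKM in tumour monocytes and 56.2 and 49.1 FPKM in WT monocytes. Each of these overlapped between the lungs, with the libraries of a group differing by more than the groups did for Rsad2. WT library 3 was the higher of its pair for 27 members (52.5% of all genes), and tumour library 4 the lower of its pair for 24 (48.5% of all genes). Neutrophil genes summed to 388 to 501 FPKM in tumour monocytes against 193 to 2974 FPKM in WT monocytes. Endothelial genes (8) summed to 97.2 to 259 in tumour monocytes and 565 to 879.7 in WT monocytes, and plasmacytoid dendritic cell genes (5) to 56.3 to 59.6 in tumour monocytes and 66.5 to 82.9 in WT monocytes. Epithelial genes summed to 86.03 to 118 in tumour monocytes and 655 to 2125 in WT monocytes. Their part was not tested.

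The change in macrophages was larger than that in monocytes for 17 of 31 members and smaller for none, against a background of 15.3% of all genes called (8.37% larger and 6.95% smaller), by the same kind of test. Rsad2 differed by 5.86 (SE 0.51, adjusted p = 0.000195), Ifit2 by 5.49 and Isg15 by 4.56. Without the 8 members that no WT macrophage library held at 1 FPKM, the change was larger for 9 of 23. The count was 11 without WT macrophage library 2 and 13 to 21 without any other library.

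Tumour epithelial cells carried more of 12 of the 30 members tested than WT epithelial cells, and less of none, with 18 not called. The background was 23.8% of all genes called, 14.9% higher and 8.89% lower (limma, Benjamini-Hochberg adjusted p over 11823 genes). The median log2 change was 0.44 over the members and 0.01 over all genes. For 2 members, Oas2 and Oas3, no WT epithelial library reached 1 FPKM. Both passed the filter on low values through the tumour group alone and had to differ, yet they count among the 12. Without the 8 members that no WT macrophage library held at 1 FPKM, which include both, 10 of 23 rose. Rsad2 was too low to test, at 0.816, 1.62 and 0.486 FPKM in tumour epithelial cells and 0.962, 0.495 and 0.289 FPKM in WT epithelial cells.

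Isg15 changed most, with 19.2, 25.9 and 12.5 FPKM in tumour epithelial cells against 6.501, 3.98 and 1.75 FPKM in WT epithelial cells, a log2 change of 2.05 (SE 0.40, adjusted p = 0.0171). Zbp1 had 6.89, 6.93 and 7.21 FPKM in tumour epithelial cells and 2.001, 3.34 and 1.25 FPKM in WT epithelial cells, a change of 1.38 (adjusted p = 0.0149). Oasl1 had 3.23, 2.56 and 6.63 FPKM in tumour epithelial cells and 0.642, 0.706 and 1.44 FPKM in WT epithelial cells, a change of 1.36 (adjusted p = 0.03). The groups did not overlap for these genes, whose products modify proteins, sense nucleic acid and act on RNA.

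Irf7 had 15.1, 19.4 and 16.2 FPKM in tumour epithelial cells and 7.15, 4.805 and 8.19 FPKM in WT epithelial cells, a log2 change of 1.23 (adjusted p = 0.0112), while Stat2 changed by 0.02 and did not pass. Bst2 had 99.1, 90.04 and 79.9 FPKM in tumour epithelial cells and 40.4, 30.9 and 52.6 FPKM in WT epithelial cells, a change of 1.13 (adjusted p = 0.0132). Eif2ak2 (0.59) and Samd9l (0.87), not called in macrophages, passed here with adjusted p of 0.026 and 0.021. Samd9l had 19.8, 15.2 and 22.2 FPKM in tumour epithelial cells and 10.4, 8.27 and 11.1 FPKM in WT epithelial cells. Oas2 (1.11), Oas3 (0.95), Dhx58 (0.88), Xaf1 (0.87) and Adar (0.69) made up the rest of the 12. Ifit1 (0.80, adjusted p = 0.0501) and Rtp4 (0.57, adjusted p = 0.0507) lay just outside the threshold.

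The count of 12 fell when single libraries were left out. It was 1 without tumour library 9, 5 without tumour library 11, 2 without WT library 8 and 5 without WT library 10. The share of all genes called was not computed without these libraries, so whether the fall is particular to the members is not known. Endothelial genes summed to 10.8 to 53.5 FPKM in tumour epithelial cells and 169 to 319 FPKM in WT epithelial cells, and their part was not tested. Compared with macrophages, 12 of 31 members had the larger change in macrophages and 2 the smaller, against a background of 31.3% of all genes called, 13.9% larger and 17.4% smaller. The 2 were Samd9l, at -1.02 (adjusted p = 0.0199), and Dhx58, at -0.61 (adjusted p = 0.0382). Ifit2 differed by 5.32 and Isg15 by 2.97 in the direction of macrophages. Leaving out those 8 low members, 5 of 23 had the larger change in macrophages and 2 the smaller. Without WT macrophage library 1, 9 members were called, none of them with the smaller change in macrophages.

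In unsorted total lung cells the members moved little and unevenly. Of 30 tested, 7 were higher and 3 lower in tumour lungs and 20 were not called, against a background of 42.5% of all genes called, 22.1% higher and 20.4% lower (limma, Benjamini-Hochberg adjusted p over 11747 genes). The share of members called, in each direction, was thus near that of all genes or below it. Isg15 had 55.6, 41.3 and 131 FPKM in tumour total lung and 25.8, 33.1 and 27.1 FPKM in WT total lung, a log2 change of 1.21 (SE 0.38, adjusted p = 0.0354). Ifit1 had 4.35, 4.08 and 12.3 FPKM in tumour total lung and 2.03, 2.13 and 2.94 FPKM in WT total lung, a change of 1.09 (adjusted p = 0.0411). In both genes tumour library 14 stood far above the other tumour libraries.

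Ifih1 had 7.59, 5.71 and 9.35 FPKM in tumour total lung and 3.75, 4.55 and 4.14 FPKM in WT total lung, a change of 0.71 (adjusted p = 0.013). Bst2 (0.51), Parp12 (0.46), Trim25 (0.39) and Eif2ak2 (0.30) were the others that rose. Cmpk2 had 2.39, 1.64 and 3.805 FPKM in tumour total lung and 4.301, 4.32 and 6.18 FPKM in WT total lung, a change of -0.74 (adjusted p = 0.0372), and Irf9 (-0.45) and Ddx58 (-0.55) also fell. Rsad2 missed the threshold, at 9.11, 5.82 and 21.3 FPKM in tumour total lung and 3.06, 4.51 and 5.43 FPKM in WT total lung (1.14, adjusted p = 0.0547). Cmpk2 and Rsad2, neighbours that moved together in macrophages and in neutrophils, thus had changes of opposite sign here, and that of Rsad2 was not called.

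Tumour total lung library 14 was the highest of its group for 21 members (32.2% of all genes) and library 13 the lowest for 27 (38.8% of all genes). The count of 10 called members was 0 without WT library 11, 3 without WT library 12, and 4 without WT library 13 or tumour library 12. Here too the share of all genes called was not computed with a library left out. The cell mix differed between these libraries: monocyte-derived macrophage genes summed to 3497 to 5972 FPKM in tumour total lung against 465 to 686 FPKM in WT total lung, neutrophil genes to 3639 to 9159.9 in tumour and 1828 to 2704 in WT total lung, and B cell genes to 171 to 458 in tumour and 764 to 1375 in WT total lung. The part of the cell mix was not tested.

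Genes upstream of the members were followed through lists of related genes. Of 9 ligand and receptor genes tested in macrophages, 6 rose and none fell, beside 20.3% of all genes higher and 17.7% lower. Ifnb1, which encodes interferon beta, had 269.5, 259 and 274 FPKM in tumour macrophages and was listed at 0 in both WT macrophage libraries. It thus passed the filter on low values through the tumour group alone and had to differ. No count without such genes was made for this list or the lists below. In monocytes Ifnb1 had 82.5 and 11.3 FPKM in tumour lungs and 0.0503 and 4.43 FPKM in WT lungs, and in neutrophils it stayed under 1 FPKM in every library. Tumour total lung had 13.7, 7.701 and 40.7 FPKM and WT total lung 4.85, 0.943 and 2.31 FPKM (log2 change 2.38, adjusted p = 0.0154).

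The receptor chain gene Ifnar1 had 37.9, 34.5 and 35.2 FPKM in tumour macrophages and 12.4 and 10.8 FPKM in WT macrophages, a log2 change of 1.55 (adjusted p = 9.27e-05). It had 49.5, 37.7 and 45.7 FPKM in tumour neutrophils and 73.3, 68.1 and 52.03 FPKM in WT neutrophils, a change of -0.53 (adjusted p = 0.018). The difference between the changes, macrophage minus neutrophil, was 2.07 (adjusted p = 1.26e-05). Ifnar2 changed by 1.15 in macrophages (adjusted p = 0.000412) and by -0.29 in neutrophils (adjusted p = 0.0809). In neutrophils 3 of 6 ligand and receptor genes fell and none rose, beside 25.8% of all genes lower and 33.3% higher.

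Of 12 kinases, factors and feedback genes, 6 rose and none fell in tumour macrophages, and 4 rose and 4 fell in tumour neutrophils. The shares over all genes were 20.3% called higher and 17.7% called lower for macrophages, and 33.3% called higher and 25.8% called lower for neutrophils, so the neutrophil counts lay near the background. Socs3, a feedback inhibitor of cytokine receptors, rose by 3.91 in tumour macrophages and by 1.59 in tumour neutrophils, whereas Socs1, which inhibits JAK kinases, changed by 0.95 in macrophages (not called) and fell by 1.503 in tumour neutrophils. Irf8, a myeloid transcription factor, fell by 1.48 in tumour neutrophils. Of 13 sensors and inducers outside the members, 6 rose and 5 fell in tumour macrophages, beside the same 20.3% and 17.7% of all genes. Ikbke, a kinase of IRF3 and IRF7, rose by 3.74 and Tlr9 by 1.82, while Tlr4 (-1.34), Tlr3 (-1.08) and Mavs (-0.76) fell. In tumour neutrophils 6 of 12 rose and 2 fell, beside 33.3% and 25.8% of all genes, with Ikbke at 2.79 and the kinase gene Tbk1 at -0.83.

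A further list held interferon-induced genes that are no members, of which 35 were in the table. In macrophages 22 of 35 rose in tumour lungs and none fell, with a median log2 change of 0.65 (all genes 0.00), beside 20.3% of all genes higher and 17.7% lower. Ifitm1, which restricts virus entry, changed by 5.49 and the guanylate-binding GTPase gene Gbp5 by 3.61. In neutrophils 18 fell and 6 rose, with a median of -0.39 (all genes 0.11), beside 25.8% of all genes lower and 33.3% higher: Ifi27l2a (-1.75), Slfn4 (-1.61) and Ddx60 (-1.53) fell most. The chemokine gene Cxcl10 did not follow the members, since it rose in tumour neutrophils by 2.95 (adjusted p = 2.72e-05) as well as in tumour macrophages by 2.58, tumour epithelial cells by 2.004 and tumour total lung by 2.63. In epithelial cells 8 of 34 rose and 2 fell, beside 14.9% of all genes higher and 8.89% lower, and in total lung 9 of 35 rose and 5 fell, beside 22.1% and 20.4%. None of the 35 was called in monocytes (limma).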

How the data were processed

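RNA was sequenced from 27 libraries of sorted or unsorted mouse lung cells. Per the submitters' processing notes, reads passed through CASAVA (1.8.2), TopHat2, Cufflinks and Cuffdiff on mm10 (GRCm38); parameters are not given in the sources used here. Per the file headers, the deposited values are the authors' FPKM per gene and library. All columns had a sample. From these, log2(FPKM + 1) was fitted with limma 3.58.1 (R 4.3.3; empirical Bayes with an intensity trend) on genes reaching 1 FPKM in 2 or more libraries of the comparison, with Benjamini-Hochberg adjustment over all genes tested and a threshold of 0.05. The pseudocount of 1 understates the changes of low genes. Differences between changes from WT to tumour were contrasts in a joint fit of 4 groups. The code was tested on simulated data. Every member could be named, with values by library for those with the largest called changes in each role; pathway genes were named by size among those called with a higher-group mean of at least 5 FPKM. The members and lists were chosen with earlier results of these data known. Gene positions and overlaps came from GENCODE M21 (GRCm38), promoters from RefSeq (GRCm38.p6). Alternatives were a pseudocount of 0.1, other filters and scalings, a fit of all 10 groups, a replicate block and leaving out each library.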

Additional observations from a re-analysis of the deposited data

Results flagged for a closer look

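The change from WT to tumour was compared between preparations by a test of the difference itself (limma, Benjamini-Hochberg adjusted p under 0.05). On the macrophage side the tumour and the CD11b gate cannot be told apart. The change differed for 26 members between macrophages and neutrophils, for 17 between macrophages and monocytes and for 14 between macrophages and epithelial cells. The shares of all genes called were 52.7%, 15.3% and 31.3%, in that order. Without the 8 members that no WT macrophage library held at 1 FPKM, the counts were 18 of 22, 9 of 23 and 7 of 23. The last of these lay near its background. For 16 members the changes were past the threshold in opposite directions in macrophages and neutrophils. The share of all genes with such calls was not computed. The difference of the log2 changes, macrophage minus neutrophil, was 8.21 for Rsad2, 6.91 for Ifit1, 6.88 for Isg15, 6.43 for Oasl1, 6.02 for Ifit2 and 5.27 for Rtp4. It was 3.32 for Irf7, 3.15 for Cmpk2, 3.12 for Oas2, 2.97 for Isg20 and 2.65 for Oas3. The smaller differences were 1.99 for Irf9, 1.92 for Xaf1, 1.71 for Zbp1, 1.28 for Adar and 1.07 for Parp9. No group had more than 3 libraries, too few for the gap test of a single outlying library.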

How the results depend on the processing

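Of 1822 member values recomputed for tumour against WT under the alternatives, 1648 kept direction and side of the threshold, 140 lost the call, 23 gained it, 11 uncalled values moved and 0 reversed. All 22 calls in macrophages were kept with the pseudocount of 0.1, and 16 of 22 in every alternative that tested them (11 or 12); in neutrophils 19 of 21 calls held in every one that tested them, against 0 of 12 for the epithelial comparison and 0 of 10 for total lung. Leaving out each library gave 16 to 22 called members (macrophages), 0 to 0 (monocytes), 20 to 22 (neutrophils), 1 to 11 (epithelial cells) and 0 to 9 (total lung). For the differences between effects it gave 24 to 27 (macrophage minus neutrophil), 11 to 21 (minus monocyte) and 9 to 15 (minus epithelial), and for tumour macrophages against tumour neutrophils 25 to 26, and WT neutrophils against WT macrophages 23 to 26. For none of these omissions was the share of all genes called computed. The fit of all 10 groups called 1 member in monocytes, and no filter on low values left 4 in total lung. The labels do not say whether a number shared by a tumour and a WT library has a meaning. Deviations of same-numbered libraries from their group means correlated at -0.170 to 0.0816 over 9 pairs. With so few libraries in a group, these correlations cannot settle whether such libraries are paired. With the number as a replicate block, which leaves 1 residual degree of freedom in some fits, the called members numbered 22 (macrophages), 20 (neutrophils), 1 (epithelial cells) and 2 (total lung); monocytes share too few numbers. Upper-quartile scaling moved the median of all genes in neutrophils to -0.01, and 22 members fell and 2 rose.

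The 15 reversals lay between cell types. For tumour macrophages against tumour neutrophils, upper-quartile scaling gave -0.15 for Irf9, -0.13 for Eif2ak2 and -0.13 for Parp14, and quantile normalization -0.12 for Irf9, -0.36 for Eif2ak2, -0.19 for Parp14, -0.0246 for Dtx3l and -0.47 for Cmpk2. For WT neutrophils against WT macrophages, upper-quartile scaling gave 0.27 for Dhx58, 0.0024 for Trim25, 0.60 for Parp9 and 0.28 for Dtx3l, and quantile normalization 0.44 for Dhx58, 0.74 for Parp9 and 0.63 for Dtx3l. These scalings move the median of all genes towards 0, and other causes were not tested. Without fragment counts, the precision of low members such as Ifi44 is not known.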
